A study of Mus musculus with 141 samples.

Results

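BMCP, the basophil/mast cell progenitors of mouse bone marrow, were examined cell by cell for the genes that every cell carried at much the same level and for those that differed most between cells. The population was sorted as live lineage-negative (Lin-), cKit+, Sca1- cells with high integrin beta7 and high CD16/32. All 94 libraries labelled BMCP were candidates. Kept were those with 50000 or more reads in nuclear-encoded genes, no more than 10% of gene reads from the mitochondrial genome and no more than 50% from spike-in RNA. These limits left 89 of 94 BMCP, out of 141 cells in the series. The granulocyte/monocyte progenitors (GMP), sorted in the study as Lin- cKit+ Sca1- CD34+ cells with high CD16/32 that lay outside the BMCP gate, served only as background, and 41 of 47 passed the same limits. Both populations came from the bone marrow of 3 female C57BL/6 mice, with no other genotype, treatment or age in the labels. The labels do not say which mouse a cell came from, so each population was 1 sample, cells were not replicates, and no test across cells was made.

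Basophils and mast cells are granulocytes that store histamine, heparin-like proteoglycans and proteases in granules and release them when the high-affinity IgE receptor is crosslinked. Mast cells mature in tissues under stem cell factor, the ligand of Kit, whereas basophils finish their development in the marrow and circulate. The transcription factor GATA2 is needed for both lineages, and carboxypeptidase A3 and serglycin are granule components that both use. Each lineage has proteases of its own, among them the chymase Cma1 in mast cells and the protease Mcpt8 in mouse basophils.

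Levels are read counts scaled to a total of 1000000 nuclear-encoded reads (CPM), means are given ± the SD over the 89 cells, and the coefficient of variation (CV) is that SD over the mean. Depth ranged from 96129 to 2416630 nuclear-encoded reads per cell, with a median of 893037, and a median of 5440 genes had a read (3862 to 7186). Spike-in RNA took a median of 11.3% of reads (3.42% to 26.8%). Columns BMCP 1 to 47 and BMCP 48 to 94 form 2 blocks of the deposited layout, which the labels do not describe. The blocks held 44 and 45 kept cells, and their median depths were 698384 and 1119896 reads. Median gene numbers were 4918.5 in the lower-numbered block and 5723 in the other, and a median of 35.1% and 24.2% of reads had not aligned. Both block means are given for the variable genes in which they differed by over 2 times. Since reads of a few CPM of many genes occurred in most cells, a gene was read as carried by a cell at 100 CPM or more.

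The label was set beside 6 marker genes, and all 89 cells carried at least 4 of them at 100 CPM. The 6 were chosen with earlier results of these data known, so these counts are a description and no test of the label. All 6 reached that level in 74 cells, 5 in 13 cells and 4 in 2 cells. Gzmb, the gene of the granule protease granzyme B, averaged 6482 ± 4962 CPM, with a lowest cell at 30.4, a median of 5565 and a highest at 22648. A single cell, BMCP 12, was under 100 CPM for it. Gata2, the GATA factor of the lineage, averaged 2016 ± 1190.2 CPM (203 to 5467, median 1917). Scin, which encodes the actin-severing protein scinderin, averaged 2738 ± 1467 CPM (104 to 6101, median 2446). Gata2 and Scin were above 100 CPM in every kept cell. Their CVs of 0.590 and 0.536 were the lowest of the 6. Itgb7 and Kit encode proteins that the sort itself selected. Itgb7 transcripts averaged 1394 ± 1143 CPM and were under 100 CPM in some of the sorted cells, with 80 of 89 at or above it and a lowest value of 3.95. Kit averaged 1339 ± 1124 CPM and reached 100 CPM in 83 cells, from 9.48 in the lowest cell to 4996 in the highest. The same 6 genes averaged 1.10 CPM (Gzmb), 794 (Cpa3), 282 (Gata2), 33.1 (Itgb7), 0.773 (Scin) and 325 (Kit) in GMP. At 100 CPM or more, 36 of 41 GMP carried Kit, 19 Cpa3, 18 Gata2, 5 Itgb7 and 0 Gzmb or Scin.

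Markers of other cell types differed in reach: the summed neutrophil, monocyte, eosinophil and B cell markers reached 100 CPM in at most 9 of 89 BMCP. The summed erythroid markers did so in 53 and the T or NK markers in 84. Summed over Mpo, Elane, Prtn3, Ctsg and Ms4a3, neutrophil progenitor markers had a median of 8.13 CPM, against 46380.5 in GMP. They reached 100 CPM in 8 BMCP. The 6 monocyte or dendritic cell markers summed to at most 11.4 CPM in any BMCP, and Ly86 and Siglech were at 0 in all of them. These 6 are part of a longer list of 12 such genes, described below. With Cx3cr1 and Ccr2 in it, that list had a summed median of 184 CPM and a highest of 2593 in BMCP 36. Erythroid markers reached 100 CPM in 53 cells, through Car1, Car2, Klf1 and, in 1 cell, Alas2, while the hemoglobin genes Hba-a1 and Hbb-bt stayed at 30.1 CPM or less. Their summed level had a median of 202 CPM and a highest value of 2603 in BMCP 91. At least 3 of the 6 erythroid markers reached 100 CPM in 3 cells. Of the megakaryocyte markers, Itga2b, the integrin alpha-IIb chain, carried the list to 100 CPM in most of the 38 cells that reached it, with 37 cells at that level for Itga2b itself. Eosinophil markers reached it in 9 cells through Siglecf, with Prg2, Prg3 and Ear1 at 0. B cell markers reached it in 7 cells, over Cd79a, Cd79b and Ebf1. The T or NK list reached it in 84 cells, mostly through the granule gene Nkg7, at 1192 CPM in BMCP and 1085 in GMP. Cd3d was at 0, while Trbc1, a constant gene of the T cell receptor, reached 100 CPM in 26 of 89 BMCP. The highest BMCP held Trbc1 at 1003 CPM, and 0 of 41 GMP reached 100 CPM for it. The part of these transcripts in the spread of other genes was not tested.

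BMCP 12 stood apart from the other 88 cells. It had the lowest Gzmb (30.4 CPM) and the highest summed neutrophil markers (2921 CPM, with Ctsg at 2352 and Mpo at 389), against 714 CPM in the next cell. The other members did not follow: Elane was at most 4.79 CPM in any BMCP, Prtn3 was highest in BMCP 75 and Ms4a3 in BMCP 44. BMCP 12 was also the highest cell for B cell markers (1079 CPM, with Cd79b, a chain of the B cell receptor, at 1075), ahead of BMCP 45 at 997 CPM. Cd79a was highest in BMCP 9, and Cd79b reached 100 CPM in 18 of 41 GMP. BMCP 12 also held 99.5% of all CPM of Prss34, a protease of basophils, at 10061 CPM. It still carried Cpa3 at 1834 CPM, Itgb7 at 1961 and Gata2 at 875, and so 5 of the 6 markers. Gene means that rest on this cell are given with and without it.

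Actb, Gzmb and Cpa3 were among the most abundant transcripts of BMCP. The 25 genes with the highest mean took a median of 11.7% of a cell's nuclear-encoded reads (8.69% to 19.5%), and 1059 genes together made up 50% of the mean profile. The highest row, CT010467.1, is annotated as ribosomal RNA and overlaps Gm42418, and its 34823 CPM are uncertain as a measure of any gene. Actb, cytoplasmic actin, followed at 15256 ± 7009 CPM, then Gzmb and Cpa3. Cpa3, the carboxypeptidase of basophil and mast cell granules, averaged 5556 ± 6879 CPM and spanned 94.03 to 30930.5 CPM, with a median of 2728. Srgn, the serglycin core protein on which granule proteases are stored, averaged 3627 ± 1683 CPM and B2m, the light chain of MHC class I, 3117 ± 1358. The nuclear RNAs Malat1 (5039 ± 2841 CPM) and Xist (2463 ± 2081) and the phosphate transporter Slc34a2 (4942 ± 5799) were also among the 25. So were Ifitm1 (2946 CPM), an interferon-inducible membrane protein, the LIM protein Lmo4 (2852), the insulin-like growth factor binding protein Igfbp4 (2795) and the actin-binding Tmsb4x (2828). The others, between 1985 and 3518 CPM, were Itm2b, Rsrp1, Scin, Tagln2, Gm26917, Ly6e, Plac8, Rac2, Cmtm7, Arhgdib, Gata2 and Hsp90ab1. CPM count reads, so long transcripts weigh more. Per kilobase of exon, 14 of the 25 stayed among the 25 highest, with Gzmb at 4514 CPM per kilobase, Cpa3 at 3663, Ifitm1 at 2693, Cma1 at 1503 and Fcer1g, the signalling chain of the IgE receptor, at 1412.

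Spread between cells was read against the spike-in RNAs, which were added to every cell in the same amount. The squared CV of 56 spike-ins was fitted as a fall with mean reads to a floor. The fit put the CV of a spike-in at 1.62 for 100 reads per cell (106 CPM) and at 0.527 for 1000 reads (1056 CPM). Of 7890 genes with a mean of at least 20 CPM, the median CV was 2.39 and the median squared CV was 1.48 times the fit at the same mean reads. For 1713 of them it was below the fit. Most genes at these levels therefore spread little more than the spike-ins did. A gene was called variable when its squared CV was at least 4 times the fit and its highest cell gave under 25% of its CPM summed over cells. It was called uniform when every kept cell had a read and the 90th percentile over cells was at most 4 times the 10th. The calls took 46 genes as variable, 0.583% of those tested, and 43 as uniform, 0.545%. At low means both limits of the variable call cannot be met together, since the limit on the highest cell caps the squared CV. The lowest mean among the 46 was 94.5 CPM (Med23). The share of 0.583% is thus taken over genes that include some that could not have been called. Both calls describe these cells, are not tests and depend on the scaling. With median-of-ratios size factors 134 genes were variable, 35 of the 46 among them, and 41 of the 43 stayed uniform. With scaling to spike-in reads 75 were variable, 28 of the 46 among them, and 7 were uniform, 6 of the 43 among them. Both scalings kept 24 of the 46 as variable. In the reported scaling Actb and Malat1 met both calls, at means where the fitted CV is low.

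**Figure D1:**
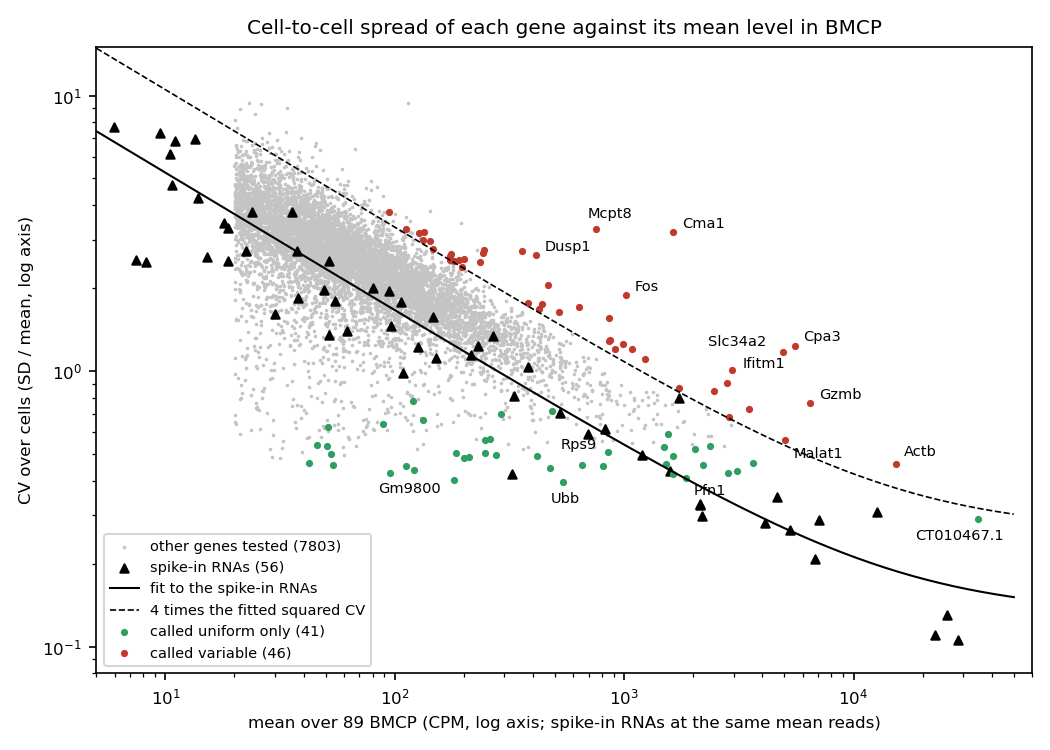
Mean level of each gene over the 89 BMCP (CPM, log axis) against its CV over cells (log axis); each small point is a gene tested, triangles are spike-in RNAs at the same mean reads, the solid line is the fit to the spike-ins and the dashed line lies at 4 times the fitted squared CV. Of the genes called variable, Cma1 and Mcpt8 lie furthest above the dashed line, at CVs of 3.20 and 3.28, and the uniform genes lie at low CVs for their means.

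The 43 uniform genes included 11 ribosomal protein genes, 4 genes of the actin cytoskeleton list and Ubb. Tmsb4x and B2m stayed uniform with spike-in scaling, while Pfn1, Cfl1, Ubb and Eef1a1 did not, at 90th percentiles 4.89, 7.30, 4.38 and 5.08 times the 10th. Pfn1, the actin-monomer binding profilin, ran from 248.7 CPM in BMCP 31 to 3819 in BMCP 28, with a median of 1756 and a CV of 0.410. Tmsb4x, thymosin beta4, ran from 964 to 8462 CPM (CV 0.428), and Cfl1, the actin-severing cofilin, from 117 to 1797 (CV 0.452). Every kept cell had a read of these actin regulators, as the uniform call requires. Ubb, polyubiquitin B, had the lowest CV among protein-coding genes, 0.396 at 543 CPM (161 to 1081). Of the translation genes, the elongation factor Eef1a1 ran from 361 to 3997 CPM (CV 0.424), and the ribosomal protein genes Rpl13a and Rps9 averaged 473 and 652 CPM with CVs of 0.443 and 0.455. B2m spanned 855 to 7152 CPM (CV 0.436), and Cmtm7, a membrane protein of the chemokine-like factor family, 589.6 to 6002 (CV 0.456). Srgn was the uniform gene with a granule role, at a CV of 0.464 and 294 to 7779 CPM. With spike-in scaling Srgn and Cmtm7 lost the uniform call, at 90th percentiles 5.97 and 5.69 times the 10th. Their squared CVs were then 5.59 and 4.59 times the fit, past the limit for variable genes. The remaining genes among the 15 lowest CVs were CT010467.1, with a CV of 0.291, and the pseudogene rows Gm11478, Gm9800, Gm4617, Tpt1-ps3 and Gm14513. Of the 43, 23 are protein-coding, 16 are processed pseudogenes, 2 are lincRNAs, 1 is the ribosomal RNA row and 1 has no annotated type. Reads of a pseudogene row and of the parent gene can be split by near-identical sequence, so these rows are uncertain, and so is the low level of Actg1 (25.4 CPM).

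Just inside the limit for uniform genes lay Arhgdib and Gm26917, whose 90th percentiles were 3.96 and 3.99 times the 10th, and just outside lay Rpl10a-ps1 and H3f3a at 4.07 and 4.17. In GMP the same rule took 263 of 7737 genes (3.40%). Of the 43 BMCP genes, 40 were also uniform in GMP, which is 93.02% of the BMCP list and 15.2% of the GMP list. The median CV over genes tested was 2.39 in BMCP and 1.58 in GMP, and the median depth was 893037 and 1309887 reads. Whether depth, block or population sets this difference cannot be told apart, since GMP fill a block of their own. Actb, the second most abundant row, had a CV of 0.459 in BMCP, from 2417 CPM in BMCP 41 to 36753 in BMCP 58, and of 0.255 in GMP.

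Among the variable genes were granule proteases and other effectors of mast cells and basophils, immediate early genes, regulators of transcription and the cell cycle, and membrane and secreted proteins; others have none of these roles, and no enrichment was tested. Cma1 (chr14:55941451-55944675, GRCm38), the mast cell chymase, stood furthest from the spike-in fit, with a squared CV 55.4 times the fit. It was at 0 in 10 cells, had a median of 12.97 CPM, and reached 27940.1 and 34299.7 CPM in BMCP 11 and BMCP 36. At 100 CPM or more it was carried by 25 of 89 cells, 28.1% (exact 95% interval 19.1% to 38.6%, for counting of cells only), against 0 of 41 GMP, which allows a share of up to 7.32% taken as 3 cells of 41, or 8.60% by the exact interval. Most BMCP were thus under that level, while BMCP 36 held more reads of Cma1 than of Cpa3 (30930.5 CPM). Its mean was 1638 CPM with BMCP 36 and 1267 without it. With spike-in scaling Cma1 was 90.8 times the fit but lost the call, as its highest cell then held 28.7% of its sum.

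Mcpt8 (chr14:56082166-56085273), the basophil protease, had a median of 3.39 CPM and a highest value of 13003 in BMCP 14, and 19 of 89 cells were at 100 CPM or more (21.3%, 13.4% to 31.3%). In GMP 14 of 41 cells reached that level. Cma1 and Mcpt8 were not alternatives in these cells: 14 cells carried both at 100 CPM, 11 carried Cma1 alone, 5 Mcpt8 alone and 59 neither. BMCP 36, the highest for Cma1 at 34299.7 CPM, held Mcpt8 at 1806 CPM and was the only cell with Tpsb2, a mast cell tryptase, above 100 CPM (1498). The mean of Tpsb2 over the other 88 cells was 0.0884 CPM. Fcer1a, the IgE-binding chain of the high-affinity receptor, was at 0 in 42 cells and reached 100 CPM in 14 (15.7%, 8.88% to 24.98%), with a highest value of 2392 CPM. Of those 14 cells, 9 also carried Cma1 and 8 Mcpt8. No GMP had a read of Fcer1a.

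Cpa3 and Gzmb differed from these proteases, since nearly every cell carried them and the spread lay in how much. Cpa3 (chr3:20215620-20242181) had a squared CV 22.9 times the fit and a 90th percentile of 16858 CPM against a 10th of 766. BMCP 41 alone fell under 100 CPM. Gzmb (chr14:56258838-56262260) lay at 9.79 times the fit but at 0.957 times the median squared CV of genes of like mean. At the highest means the window behind that median reaches down to lower ones, so Gzmb and Cpa3 were set against less abundant genes. On this scale Cpa3 stood at 2.50, Mcpt8 at 13.5 and Cma1 at 15.4, values that are not strictly comparable. Cyp11a1, the side-chain cleavage enzyme that starts steroid synthesis, had a median of 24.7 CPM, a highest of 5482 and 41 cells at 100 CPM or more (46.1%, 35.4% to 56.96%), with 1 such cell in 41 GMP. Alox5, the 5-lipoxygenase of leukotriene synthesis, ran from 0 to 4712 CPM with 56 cells at 100 CPM or more. Ctsd, the lysosomal protease cathepsin D, ran from 0.934 to 8278 CPM with 65 such cells. Itm2b, a membrane protein, was carried by every cell at 309.8 to 13011 CPM.

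**Figure D2:**
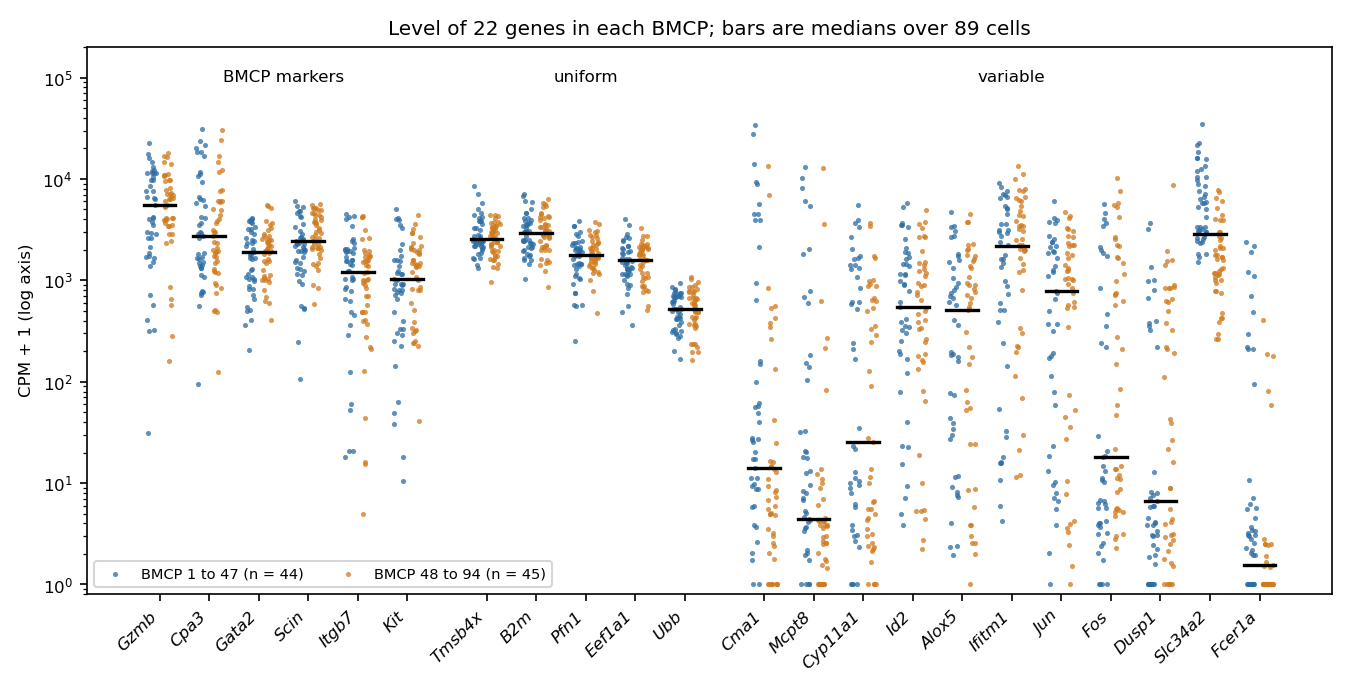
CPM + 1 (log axis) of 22 marker, uniform and variable genes in each kept BMCP; each point is a cell, BMCP 1 to 47 and BMCP 48 to 94 stand side by side, and bars are medians over all 89 cells. Cma1, Mcpt8, Fos and Dusp1 spread from 0 to over 1000 CPM, while Pfn1, Ubb and Eef1a1 keep every cell above 100 CPM.

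Of the immediate early list, Fos, Jun and Dusp1 were called variable, and Ppp1r15a, a stress-inducible gene outside that list, is described with them. Fos (chr12:85473890-85477273), a subunit of the AP-1 transcription factor, had a median of 16.96 CPM and a highest of 10292 in BMCP 56, and 37 of 89 cells carried it at 100 CPM or more (41.6%, 31.2% to 52.5%). Jun, its partner, was carried by 61 cells, with a median of 786 and a highest of 6087 CPM. Dusp1, a phosphatase of MAP kinases, was carried by 32 cells (median 5.69, highest 8678 CPM), and Ppp1r15a, a regulator of eIF2-alpha dephosphorylation, by 23 (median 1.96, highest 3661). Of the 37 cells with Fos, 34 also carried Jun, 23 Dusp1 and 17 Ppp1r15a. Of the 52 cells without Fos, 27 carried Jun, 9 Dusp1 and 6 Ppp1r15a. Of the 23 immediate early genes listed, 16 were tested, 3 were called variable and none uniform, against 0.583% and 0.545% of all genes tested. Their summed level spanned 116 to 24762 CPM, with a median of 3547 and the highest value in BMCP 87. Ier2 (659.7 CPM, 69 cells at 100 CPM or more), Junb (359.9, 52 cells), Egr1 (226, 31 cells) and Ier3 (591, 62 cells) were not called.

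Regulators of transcription and the cell cycle among the variable genes included Id2, Lmo4, H1f0, Med23 and Cdk6. Id2, which blocks DNA binding by helix-loop-helix factors, ran from 1.24 to 5774 CPM with a median of 543 and 70 cells at 100 CPM or more, against 1 of 41 GMP. Lmo4, a LIM-only cofactor, was at 100 CPM or more in 85 cells, from 8.71 to 8829.9 CPM. Cdk6, the G1 cyclin-dependent kinase, averaged 1730 CPM and reached 10402 in BMCP 75. Gm17590, which is annotated antisense within Cdk6, was called too, but without strand its reads cannot be told from those of Cdk6 introns. H1f0, the linker histone H1.0, had 33 cells at 100 CPM or more and a median of 2.03.

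Among membrane and secreted proteins, Slc34a2 (chr5:53038081-53071664) was carried by every cell, from 264 CPM in BMCP 83 to 35026 in BMCP 32. Ifitm1 (chr7:140967221-140969825) ran from 3.26 to 13322 CPM with a median of 2169.8, and 74 cells were at 100 CPM or more, so a minority nearly lacked a transcript that ranked 10th by mean. Igfbp4 ran from 3.03 to 13161 CPM, with 84 cells at that level. Apoe, apolipoprotein E, had a median of 368 CPM and its highest value, 7756, in BMCP 12. The chemokine Ccl9 was highest in the same cell (4013 CPM) and was carried by 20 BMCP, against 38 of 41 GMP. Without BMCP 12 their means were 776 and 200.5 CPM, against 855 and 243 with it. Cdc42se2, an effector of the small GTPase CDC42, and Gm10800, a predicted gene whose reads are uncertain, complete the 25 highest ratios with Actb and Xist. Ratios of the 21 further variable genes lay between 4.01 and 4.89. They were Ifngr1, Med23, Adamts10, Abhd4, Rnpepl1, Rab44, Ccr1, Irgm1, Hs3st1, Malat1, Dynlt3, Cdk6, Fam107b, Kif13a, Hdac10, Rgs2, Lmo4, Sgms1, Acss1, Xab2 and Krba1. Among them Hs3st1, a heparan sulfate sulfotransferase, reached 100 CPM in 21 BMCP and had no read in any GMP. Just inside the limit of 4 lay Xab2 and Krba1, at 4.03 and 4.01, and just outside lay Ndel1 and Ier3, at 3.99 and 3.88.

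A stricter yardstick is the squared CV of genes of like mean in the same cells. At the highest means this yardstick draws on genes of lower mean. By it, 6 of the 46 genes lay at 4 times the running median or more: Cma1 (15.4), Mcpt8 (13.5), Dusp1 (5.65), Gm17590 (5.39), Fos (4.96) and Ppp1r15a (4.05). Of all genes tested, 443, which is 5.61%, lay at 2 times or more. The share of all genes tested at 4 times is not given, so nothing is read from the count of 6. Genes outside the 46 passed 4 times too, among them Prss34 (22.4) and Pdzd2 (7.80), each carried mostly by 1 cell. Among the 46, Cma1 and Mcpt8 thus ranked highest on both yardsticks. In GMP the variable call took 75 genes (0.969%), led by Elane, Apoe and Mpo at 33.4, 21.6 and 21.3 times the GMP spike-in fit. The 2 lists shared Alox5, Apoe, Cpa3, Malat1, Slc34a2 and Xist, which is 13.04% of the BMCP list and 8% of the GMP list.

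A further 82 genes passed the ratio of 4 but drew at least 25% of their CPM from a single cell, and were not called. The examples named here were chosen after their values were seen. Prss34, at 114 CPM over 89 cells, stood at 0.582 without BMCP 12. Tpsg1, a transmembrane tryptase, drew 99.3% of its CPM from BMCP 36 (2039 CPM), which is the cell highest for Cma1 and Tpsb2. The interferon-induced Iigp1 and Rsad2 drew 99.1% and 64.2% from BMCP 50, and Irf1 and Irgm2 drew 33.5% and 69.8% from BMCP 41. Ube2c, which acts in mitosis, drew 59.5% from BMCP 29. BMCP 41, with 329696 reads among the shallower cells, was the highest cell for 14 of the 82 genes, BMCP 40 for 7 and BMCP 9 for 5.

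Promoter letters were set beside the calls, because the most variable genes include classic inducible ones. Promoters, from 250 bases before to 50 after each RefSeq start (GRCm38.p6), were found for 39 of the 46 variable and 19 of the 43 uniform genes. The variable genes with TATAAA on the gene's strand between 40 and 11 bases before the start were Cpa3, Fos and Igfbp4. Shown with them are Cma1, Mcpt8 and Gzmb, the granule protease genes at the head of the results, and Pfn1 and Cmtm7 as uniform genes. Each line gives the 120 bases before the start, 5′ to 3′ on the gene's strand, with TATAAA and AGATAA, on either strand, in capitals; RefSeq starts can differ from the ends of the GENCODE genes given above.
Cpa3, chr3:20242182-20242301, minus strand: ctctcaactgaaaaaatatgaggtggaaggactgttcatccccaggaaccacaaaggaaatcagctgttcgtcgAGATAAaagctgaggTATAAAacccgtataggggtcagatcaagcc
Fos, chr12:85473770-85473889, plus strand: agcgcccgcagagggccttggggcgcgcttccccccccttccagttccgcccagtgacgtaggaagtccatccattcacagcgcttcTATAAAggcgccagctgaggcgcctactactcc
Igfbp4, chr11:99041124-99041243, plus strand: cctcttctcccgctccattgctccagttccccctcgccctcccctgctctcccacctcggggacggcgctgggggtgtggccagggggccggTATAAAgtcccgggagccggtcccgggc
Cma1, chr14:55944676-55944795, minus strand: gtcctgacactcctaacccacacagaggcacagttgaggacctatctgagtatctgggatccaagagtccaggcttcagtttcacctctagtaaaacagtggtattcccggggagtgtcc
Mcpt8, chr14:56085198-56085317, minus strand: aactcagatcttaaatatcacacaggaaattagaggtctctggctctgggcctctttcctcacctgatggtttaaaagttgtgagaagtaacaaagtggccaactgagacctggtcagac
Gzmb, chr14:56262335-56262454, minus strand: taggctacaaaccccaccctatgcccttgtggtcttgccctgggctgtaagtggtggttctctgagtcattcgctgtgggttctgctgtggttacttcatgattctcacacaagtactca
Pfn1, chr11:70654651-70654770, minus strand: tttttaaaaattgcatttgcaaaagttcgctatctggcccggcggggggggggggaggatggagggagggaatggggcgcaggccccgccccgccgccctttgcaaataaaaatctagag
Cmtm7, chr9:114781994-114782113, minus strand: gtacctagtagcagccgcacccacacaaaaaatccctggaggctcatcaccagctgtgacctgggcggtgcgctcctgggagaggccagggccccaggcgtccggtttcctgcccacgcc
Cpa3 holds an AGATAA, a form of the GATA motif, just ahead of its TATAAA. Over the 300 bases and both strands, TATAAA was in 10 of 48 promoters of variable genes, 20.8% (exact 95% interval 10.5% to 34.99%), in 4 of 24 of uniform genes, 16.7% (4.74% to 37.4%), and in 6.20% of 7837 promoters of all genes tested. It was in 13.6% of 32851 promoters in the whole table. Within the window of 40 to 11 bases, the shares were 6.25% for variable genes, 0 of 24 promoters of uniform genes (exact upper limit 14.2%), 0.817% for genes tested and 2.08% for the table. AGATAA on either strand was in 10.4% of promoters of variable genes (Cpa3, Fcer1a, Jun, Ppp1r15a and Sgms1), 4.17% of uniform genes (Arhgdib), 6.09% of genes tested and 11.2% of the table. The 2 motifs can overlap only by their ends, and a match describes letters, not binding. The intervals of the variable and uniform genes overlap, which is not a test, and whether their shares differ was not tested. The intervals also count each start of a gene with several starts as a separate draw.

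Some of the variable genes varied together. Over the 89 cells, Spearman's rho was taken for the 1035 pairs of variable genes, 2 of which overlap or are neighbours and were set aside. The cells share depth and block, so rho is a description and carries no p. The median rho was -0.0014, 13 pairs were at 0.5 or above and 7 at -0.5 or below. Cpa3 and Cyp11a1 had the highest, 0.738, with 0.768 in BMCP 1 to 47 and 0.689 in BMCP 48 to 94. Cpa3 also went with Id2 (0.669), Alox5 (0.588), Gzmb (0.567) and Itm2b (0.565). The remaining pairs of this group were Gzmb with Id2 (0.567), Cyp11a1 with Id2 (0.565) and Mcpt8 with Cyp11a1 (0.514). Each of these had rho above 0.4 within both blocks. Outside it stood the nuclear RNAs Xist and Malat1 (0.629), Itm2b with Ctsd (0.576), Actb with Itm2b (0.549) and Fos with Dusp1 (0.507).

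Ifitm1 ran against the same group. Its rho was -0.636 with Cpa3 (-0.652 and -0.609 in the blocks), -0.555 with Alox5 (-0.750 and -0.382) and -0.539 with Id2. The other low pairs were Igfbp4 with Cyp11a1 (-0.563), Cpa3 with Jun (-0.555) and Id2 with Cdk6 (-0.529). At 100 CPM the opposition of Cpa3 and Ifitm1 was of degree, since 73 cells carried both, 15 Cpa3 alone and 1 Ifitm1 alone. After thinning to 200000 reads per cell, rho was 0.722 for Cpa3 with Cyp11a1 and -0.630 for Cpa3 with Ifitm1. In the 41 GMP the same pairs had 0.303 and 0.295, and the difference was not tested.

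**Figure D3:**
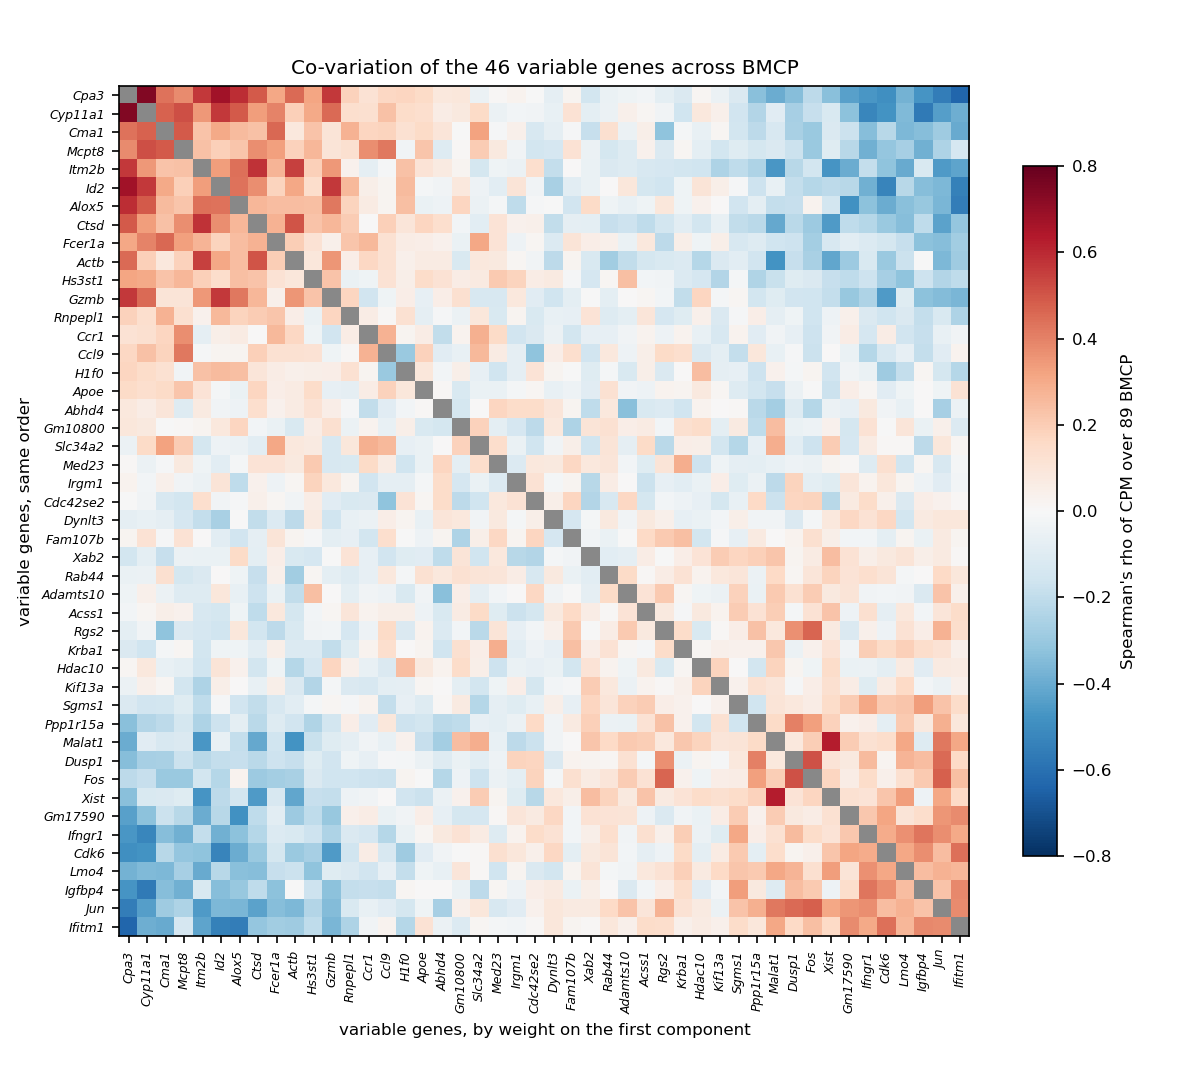
Spearman's rho over the 89 BMCP between each pair of the 46 variable genes, ordered by their weight on the first component; colour runs from negative to positive rho. The block at the Cpa3 end holds the positive pairs of Cpa3, Cyp11a1, Id2 and Alox5, and the opposite corner holds their negative pairs with Ifitm1, Jun and Igfbp4.

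Principal components of log2(CPM + 1), with each of the 46 genes scaled to equal variance, gave the same contrast as the leading axis of these genes. The genes and cells are those of the pairs above, so the components restate the pairs and add no separate support. The first component took 18.97% of the variance. Cpa3 (weight 0.29), Cyp11a1 (0.25), Cma1 (0.23), Mcpt8 (0.23), Itm2b (0.21), Id2 (0.20), Alox5 (0.19) and Ctsd (0.18) lay at its positive end. Ifitm1 (-0.24), Jun (-0.22), Igfbp4 (-0.22), Lmo4 (-0.19), Cdk6 (-0.19), Ifngr1 (-0.18), Gm17590 (-0.17) and Xist (-0.16) lay at the other. Effector genes of both basophils and mast cells thus shared an end of the axis. Scores ran from -6.05 in BMCP 75 to 7.30 in BMCP 18. The widest gap between neighbours was 0.702 within the middle 80% of cells and 1.07 over all cells. Whether the cells form a continuous range or separate groups was not tested. Scores had a rho of -0.0121 with depth, -0.150 with the number of genes and -0.233 with the spike-in share, and block medians of 0.0372 and -1.34.

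The cells at the ends illustrate the axis, largely in the genes that form it. BMCP 18 carried Cpa3 at 18582 CPM, Cyp11a1 at 3709, Mcpt8 at 5450, Cma1 at 4502 and Id2 at 5324, with Ifitm1 at 16.9 and Jun at 1.06. BMCP 75 carried Cpa3 at 123 CPM, Cyp11a1 at 3.52 and Id2 at 1.76, had no read of Mcpt8 or Cma1, and held Ifitm1 at 3419, Jun at 3236 and Cdk6 at 10402. Both cells carried all 6 markers at 100 CPM. BMCP 75 also held the erythroid marker Car1 at 1650.2 CPM, was the highest cell for eosinophil markers (1212 CPM, all of it Siglecf), and held Sox4 at 1048 CPM. The part of those transcripts in its place on the axis was not tested.

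**Figure D4:**
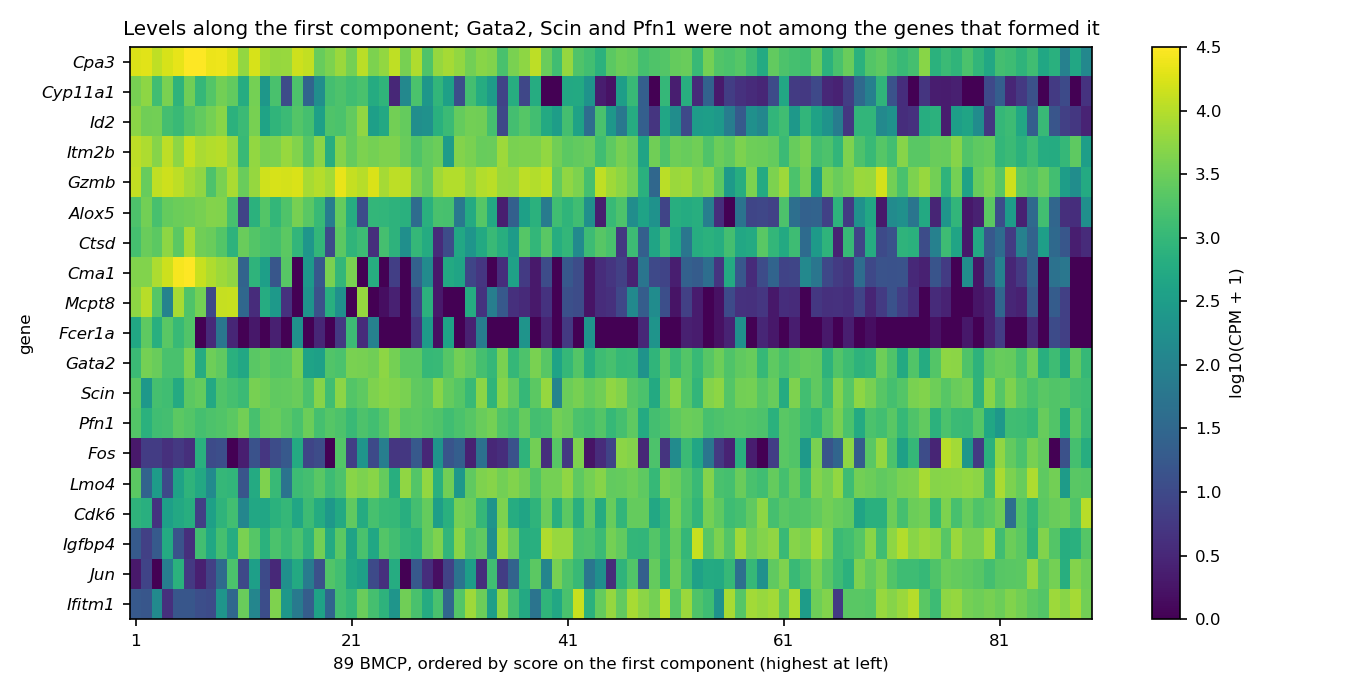
Levels of 19 genes (rows, colour as log10 of CPM + 1) in the 89 BMCP (columns) ordered by score on the first component, from BMCP 18 at 7.30 on the left to BMCP 75 at -6.05 on the right. Cpa3, Cyp11a1, Id2 and Alox5 fade from left to right, Cma1 and Mcpt8 are brightest at the left, and Ifitm1, Jun and Igfbp4 are dark there.

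Among 1352 genes outside the 46 with a median of at least 20 CPM, 24 had a rho of 0.4 or above with the scores and 26 had -0.4 or below, over the same 89 cells and their shared depth. These genes were picked after their values were seen. With the Cpa3 end went Tyrobp (0.612) and Fcer1g (0.601), signalling adaptors of activating receptors, and Ndst2 (0.603), the sulfotransferase that makes mast cell heparin. Srgn (0.582), Il1rl1 (0.528), the receptor of IL-33, Cd63 (0.525), a granule membrane protein, and Kit (0.436) went with them, as did the flippase gene Atp8b5 (0.618). Cd63 has a near-identical pseudogene row and is uncertain. Against it went Tmsb10 (-0.600), the sialyltransferase St8sia6 (-0.554), Marcksl1 (-0.531), the histone deacetylase Hdac7 (-0.513), Plac8 (-0.482), the progenitor transcription factor Sox4 (-0.460) and Cd24a (-0.422). The markers that every cell carried did not follow the axis, with rho of 0.116 for Gata2 and -0.0492 for Scin.

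The second component took 6.56% of the variance and the third 5.61%. Actb (0.29), Ctsd (0.25), Cdc42se2 (0.20), Itm2b (0.19), Abhd4 (0.18), Igfbp4 (0.17), Irgm1 (0.17) and Ifitm1 (0.14) lay at the positive end of the second. Malat1 (-0.38), Gm10800 (-0.27), Xist (-0.24), Hdac10 (-0.23), Slc34a2 (-0.20), Alox5 (-0.17), Acss1 (-0.17) and Cma1 (-0.16) lay at the other end. The nuclear RNAs Malat1 and Xist thus lay opposite Actb, and the scores had a rho of 0.418 with depth. The third was led by Fos (0.40), Rgs2 (0.40), Dusp1 (0.32) and Ppp1r15a (0.32), with a rho of 0.349 with depth.

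Gene groups were compared by how many members were called, beside all genes tested, where 0.583% were variable, 0.545% uniform and 5.61% at 2 times the spread of genes of like mean. In the lists, as in all genes tested, members of low mean could not have been called variable. The 31 lists held 531 genes found in the table, of which 351 were tested, 17 called variable and 18 uniform. Several lists were drawn around genes already known to differ here, so their counts are descriptions.

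Basophil effector genes differed in how many cells carried them. Of the 12 basophil genes 10 were tested, 3 were variable (Mcpt8, Cyp11a1, Fcer1a) and 6 lay at 2 times genes of like mean, with a median CV of 2.81. Prss34, among the 6, passed the limit of 20 CPM only through BMCP 12, at 114 CPM with it and 0.582 without. These counts and this median are given with that cell only. Il6 was carried at 100 CPM by 57 cells, Ccl4 by 20 and Il4 by 12, while Il13 did not reach that level in any cell. Ms4a2, whose product is the beta subunit of the same receptor as Fcer1a, averaged 752 CPM and was carried by 63 cells, far more than the 14 with Fcer1a. Ccl3 averaged 78.5 CPM with BMCP 15 and 39.9 without it. Mast cell genes were few: 3 of 11 were tested, Cma1 and Gzmb were variable, and Mcpt2, Mcpt4, Mrgprb1 and Tph1 had no read in any cell. Mitf, a transcription factor that mast cells need, was at 100 CPM or more in 25 cells.

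The genes shared by both lineages were broader in reach, with 13 of 15 tested, 3 variable, 1 uniform, a median CV of 1.24 and a median rho of 0.525 with the first component, against -0.0155 over all genes tested. Cpa3, Alox5 and Fcer1a, which are among the genes that form that component, are in this list. Fcer1g averaged 1234 CPM and was at 100 CPM or more in all 89 cells (CV 0.636), and Slc18a2, the vesicular transporter that loads histamine, averaged 921 CPM in 77 cells. Hdc, the enzyme that makes histamine, was carried by 33 cells at a mean of 207 CPM. Il1rl1 was carried by 50 cells and Ndst2 by 37. Of the transcription factors, 21 of 30 were tested and 2 were variable, Id2 and Lmo4. Gata2 had the lowest CV of the list (0.590), Ikzf1, Runx1 and Ikzf2 averaged 927, 860 and 721 CPM, and Gata1, an erythroid, mast cell and basophil factor, was carried by 23 cells. Spi1, which encodes PU.1, was carried by 29. Lmo2 averaged 59.8 CPM with BMCP 40 and 32.2 without it.

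None of the 10 tested genes of the cytokine receptor list was called variable, nor any of the 10 tested integrin genes. That is near the background for lists of this size. Ifngr1, an interferon-gamma receptor gene that is not on the cytokine receptor list, was called variable at 4.89 times the fit. Il2rg, the common gamma chain, was carried by 82 cells at 823 CPM (CV 0.640), and Itga4, which pairs with integrin beta7, by 87 at 1505 CPM (CV 0.753). Csf2rb (527 CPM) and Csf2rb2 (366) are near-identical and uncertain. Of the cytokines and chemokines, 9 of 20 were tested and Ccl9 was variable, with 5 at 2 times genes of like mean. Of 7 tested interferon response genes Ifitm1 was variable and 4 lay at that level: Irf7, Ifitm3 and Usp18, highest in BMCP 50, and Oasl2, highest in BMCP 41.

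Genes of other lineages and of multipotent cells were carried by part of the population without being called. Of the stem and multipotent progenitor genes 6 of 10 were tested and none was called, with Cd34 at 474 CPM in 48 cells, Meis1 at 381 in 47, Myb at 271 in 44 and Sox4 at 157 in 37. Of the erythroid genes 5 of 12 were tested and none called, with Car1 in 29 cells and Car2 in 32. In the monocyte and dendritic cell list, 2 of 12 were tested, Cx3cr1 at 293 CPM in 48 cells and Ccr2 at 88.5 in 12. Of the early granulocyte genes 1 of 10 was tested, Ctsg, at 43.6 CPM with BMCP 12 and 17.4 without it, and of 9 late neutrophil genes none. Of the eosinophil, megakaryocyte and lymphoid lists 1 of 8, 1 of 8 and 4 of 13 were tested, and no member was called. Ctsg, Siglecf (48.5 CPM) and Cd79b (50.7 CPM) lay at means too low for the variable call, so nothing is read from its lack in them.

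Genes of cell division set a few cells apart. All 8 tested of 15 G2 and M phase genes lay at 2 times the spread of genes of like mean (median CV 5.85), and none was called. These 8 passed the limit of 20 CPM on the mean through a few cells, which by itself fixes a high CV. Genes carried by a few cells also tend to fail the limit on the highest cell, so nothing is read from either count. The summed level of the list had a median of 4.05 CPM and its highest, 12765, in BMCP 44. Mki67, a mark of cycling cells, was at 1582 CPM in BMCP 44 and 1434 in BMCP 29, and at 100 CPM or more in 3 cells. S phase genes were spread over more cells, with 12 of 15 tested, 1 at 2 times genes of like mean and none called, and a summed median of 780 CPM. Mcm6, a subunit of the replicative helicase, was carried by 34 cells. Of the G1 genes, 7 of 12 were tested and Cdk6 was variable, while Ccnd2, the D-type cyclin, was carried by 74 cells at a CV of 0.807.

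Housekeeping groups held most of the uniform calls among listed genes. Of 54 tested cytosolic ribosomal protein genes, out of 82, 11 were uniform and none variable, with a median CV of 0.724 and a median squared CV 0.218 times that of genes of like mean. All 17 actin cytoskeleton genes were tested, 4 were uniform, among them Actb, which was also variable, with a median CV of 0.672 and 0.410 times genes of like mean. Of the 71 tested of 89 oxidative phosphorylation genes none was called, and the median stood at 0.375 times genes of like mean. Glycolysis (10 of 15 tested) and the antioxidant and iron list (15 of 15) had no call either, with median CVs of 1.08 and 1.10. Translation factors (16 of 16) gave 1 uniform gene, Eef1a1, and MHC class I (7 of 7) gave B2m. Chaperones (13 of 15) gave no call, cathepsins and lysosomal genes (13 of 15) gave Ctsd as variable, and the leukotriene and prostaglandin list (6 of 10) gave Alox5. The median over all genes tested was a CV of 2.39 and 0.999 times genes of like mean.

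**Figure D5:**
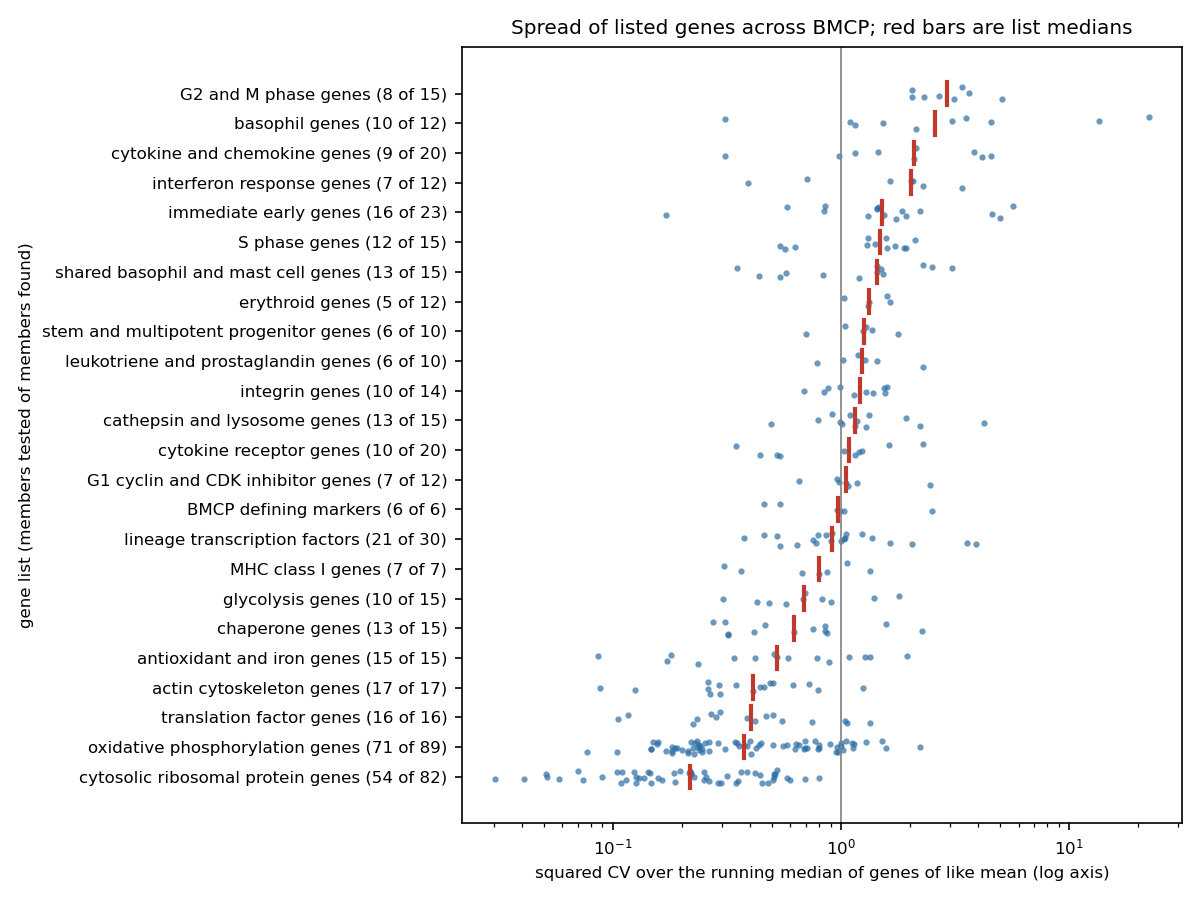
Squared CV of list members over that of genes of like mean (log axis) for lists with at least 5 members tested; points are genes and bars are medians. The medians run from 0.218 in the ribosomal list to 2.59 in the basophil list and 2.91 in the G2 and M phase list, whose tested members passed the limit on the mean through a few cells.

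Some of the leading genes differed between the blocks. Block means differed by over 2 times for 12 of the 46 variable genes, 10 of them higher in BMCP 1 to 47 and 2 in BMCP 48 to 94. The share of all genes tested that differed this much, and its direction, is not given. Nothing is therefore read from the count of 12 or from its split. Slc34a2 averaged 7748 CPM in the first block and 2199 in the other, with medians of 5543 and 1616. Cma1 averaged 2766 and 535 CPM, and 2033 and 241 without the highest cell of each block, BMCP 36 and BMCP 52. Mcpt8 averaged 1127 and 395 CPM, but BMCP 82 alone, at 12871 CPM, held 72.4% of the sum of the second block, whose other cells averaged 112 CPM. Fcer1a averaged 251 and 20.4 CPM, with 11.7 in the second block without BMCP 92. Ctsd averaged 1339 and 654 CPM, Ccl9 349.5 and 139 (92.2 without BMCP 58), and the chemokine receptor Ccr1 239.8 and 46.7. Rnpepl1 averaged 224 and 33.9 CPM (20.2 without BMCP 52), Krba1 251 and 97.3 and Gm10800 625 and 308. These 10 genes were thus lower in the more deeply read block. Ppp1r15a (156 and 334 CPM) and the sphingomyelin synthase gene Sgms1 (92.2 and 267) were higher there, and Sgms1 stood at 38 CPM in the first block without BMCP 32. Without the highest cell of each block all 12 kept their direction and 10 still differed by over 2 times, Ctsd and Gm10800 being the exceptions. Fos had medians of 9.53 and 149 CPM, and Dusp1 of 3.29 and 25.8. Gzmb averaged 6377 and 6585 CPM, and Cpa3 6279 and 4849. The labels tie neither mouse nor plate to the blocks, so block and biology cannot be told apart here. After thinning to 200000 reads, 27 of 86 cells had 10 or more reads of Cma1 and 20 of 86 of Mcpt8.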

How the data were processed

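Single cells were lysed in plates, and polyA RNA was reverse transcribed from oligo-dT, amplified over 23 PCR cycles beside spike-in RNA and read from a single end over 50 bases, per the labels' protocols. The protocol has no molecular identifiers: reads are copies rather than molecules, and intervals cover counting error only. The authors deposited unnormalized read counts for each gene in each cell. GSNAP, HTSeq 0.5.3p3 and mm10 are named in the submitters' processing notes, which give no annotation release. The table holds 46078 gene rows (37 mitochondrial) and 92 spike-in rows. GENCODE vM21 (GRCm38) gave 45229 rows a symbol. Rows of unaligned, unassigned and ambiguous reads held 30.4%, 17.6% and 3.77% of reads of the kept BMCP and stayed out of all totals. Counts are unstranded. No doublet caller was run on these sorted single cells, and no cells had identical counts. Of the 5 BMCP left out, 2 failed on reads or spike-in share and 3 on mitochondrial share.

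CPM use nuclear-encoded counts as the total. Squared CVs of 56 spike-ins with at least 5 mean reads were fitted as a/mean + b by gamma regression, and the like-mean comparison used a running median over 301 genes, whose window at the highest means reaches down to lower ones. Named genes were the 25 most abundant, the 15 uniform genes of lowest CV, the 25 variable genes of highest ratio, the 12 highest and 6 lowest pairs (none within 50 kb of each other), the 8 highest and lowest weights on the first 2 components, and list members; some members of the lists are not reported here and stayed out of list counts and marker sums. Members and lists were chosen with earlier results of these data known. The steps were tested on simulated counts. Alternatives changed scaling, cell and gene filters, thresholds, depth, blocks and single cells. Computation used scipy 1.17.1, numpy 2.4.6 and pandas 2.3.3 under Python 3.11.15, and figures matplotlib 3.10.9.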

Additional observations from a re-analysis of the deposited data

How the results depend on the processing

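No paired analysis was possible because replicate numbers only count cells and no test was made. The 46 variable genes became 134 with median-of-ratios size factors (35 shared), 75 with spike-in scaling (28 shared), 30 in BMCP 1 to 47 alone (23 shared), 9 at 8 times the fit, 128 with no limit on the highest cell, 24 without each gene's highest cell and 6 at 4 times genes of like mean. The 43 uniform genes became 7 with spike-in scaling (6 shared), 20 with no cell filter, 28 in BMCP 1 to 47 alone (27 shared), 80 in BMCP 48 to 94 alone (42 shared), 7 when the 90th percentile could be at most 3 times the 10th and 24 at a CV of at most 0.5. Listed variable genes went from 17 to 31 with spike-in scaling, 7 at 8 times the fit and 29 with no limit on the highest cell. Per kilobase, 14 of the 25 most abundant genes stayed. Dropping a limit or cells changes these counts by construction; for the scalings the cause was not tested. The other 8 alternatives for variable genes, 7 for uniform genes and 11 for lists, among them leaving out BMCP 12 or BMCP 29 and 44, stayed within 1.5 times. Leaving out named cells or the highest cell of a block, and the alternatives for the first component, were chosen after seeing the data. In the alternatives for the first component, the weight of Cpa3 was 0.21 to 0.33 and scores had a rho of 0.930 to 0.999 with those reported. Of 351 listed genes tested, 20 had a mean moved over 1.5 times by their highest cell and 98 had block means over 1.5 times apart. Neither share is given for all genes tested, so nothing is read from these counts. Depth limits genes under about 100 reads per cell, where the spike-in CV alone is 1.62.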
